A study of Mus musculus with 6 samples.

Results

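The genes of the kinesin and dynein motors were examined in the hippocampus of mice in which the long isoform of hnRNP DL (L-DL), an RNA-binding protein of nuclear speckles, was targeted by shRNA. Genes were taken by symbol, as every gene whose name begins with Kif and a number, Klc and a number, Dync1, Dync2 or Dynl. This rule found 63 of the 52550 genes counted, of which 59 are annotated as protein coding. It also found 183 of the 40961 splicing events listed, in 39 of these genes. The symbols take in Kif1bp, which encodes a kinesin-binding protein and not a motor, and 4 pseudogenes or antisense genes. They leave out the C-terminal kinesins and the axonemal dyneins, which are given separately.

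Kinesins and cytoplasmic dynein are enzymes that use ATP to walk along microtubules. In axons, where microtubules point their plus ends to the tip, most kinesins carry cargo outward and dynein carries it back to the cell body. Kinesin-1 is built from heavy chains (Kif5a, Kif5b and Kif5c), which hold the motor, and light chains (Klc genes), which bind cargo. Kinesin-2 and kinesin-3 motors carry vesicles, synaptic vesicle precursors and, in cilia, the trains of intraflagellar transport. Kinesin-4 and kinesin-13 proteins act on microtubule growth, and many others serve the mitotic spindle.

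The samples were 3 control libraries and 3 L-DL KD libraries from the hippocampus of C57BL/6 J mice, all male and wild type. They were 8 weeks old when AAV with control shRNA or with L-DL shRNA was injected into CA1 on both sides. The L-DL virus carried 4 shRNAs in tandem, each under an H1 promoter, which is not restricted to neurons, and a CamkIIα promoter drove its zsGreen marker. The control virus was given at a higher titre than the L-DL virus, so titre and shRNA cannot be told apart. The sample labels call the L-DL KD animals a knockdown in one field and "-/-" in another, and the control animals wild type. They do not say whether each library came from a separate mouse, so p-values measure the spread between these libraries.

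Reads counted on genes ranged from 16052529 to 16995425 in the control libraries and from 16525467 to 17913064 in the libraries labelled L-DL KD. Hnrnpdl itself, counted over all isoforms, was at 177 ± 6.41 and 180 ± 33.9 CPM (counts scaled to a common library size, SD, n = 3), so the gene count gives no check of the knockdown of 1 isoform. The scaling used TMM, a factor that corrects for differences in library composition. Markers of cell types moved with the groups. Of 12 neuronal markers 9 were lower in L-DL KD and 2 were higher (Nefl and Nefm), and their summed level was 5954 to 6271 CPM in controls and 4340 to 5035 CPM in L-DL KD. Of 7 markers of CA1 pyramidal cells 4 were lower and 1 was higher (461 to 576 CPM in sum, against 315 to 371). All 12 microglial markers were higher, with sums of 1971 to 2482 CPM and 3850 to 5034 CPM. None of these markers was at 0 throughout. Of 6 endothelial markers 4 were higher. Of 8 astrocyte markers 1 was higher and 4 were lower, and of 10 oligodendrocyte markers 1 was higher and 1 lower. The 6 markers of choroid plexus, tissue that lies beside the hippocampus, summed to 1716, 440 and 4625 CPM in control replicates 1 to 3 and to 5179, 116 and 30.2 CPM in L-DL KD replicates 1 to 3, so that libraries of each group stood far apart, and 0 of the 6 passed edgeR (0 at an unadjusted p under 0.05, 0 under DESeq2). The part of these shifts in the results on motor genes was not tested. In whole tissue, fewer cells of a type and less RNA per cell cannot be told apart.

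The heavy chains of kinesin-1, Klc2, Dync1i1 and Dynll2 were lower in L-DL KD, and Kif1c and Kif13a were higher. Of the 63 genes, 57 had enough counts to be tested (at least 10 counts in at least 3 libraries). Among these, 12 were lower in L-DL KD (21.1%) and 6 were higher (10.5%), by edgeR's quasi-likelihood test at a Benjamini-Hochberg adjusted p under 0.05. Over all 17621 genes tested, 15.0% were lower and 15.6% were higher. The median log2 fold change (L-DL KD minus control) was 0.02 over the motor genes and 0.006 over all genes. The groups did not overlap in 30 of the 57 genes (52.6%), against 47.2% of all genes tested. Calls were divided by level. Of 26 motor genes with a mean of at least 50 CPM over all libraries, 11 were lower and 2 higher, with a median log2 fold change of -0.19. Of 31 genes under 50 CPM, 1 was lower and 4 were higher, with a median of 0.25. The shares over all genes of the same level were not computed, so whether the split is particular to motor genes was not tested. The 6 genes not tested were Kif12, Kif28, Kif2b, Kif16bos, Kif22-ps and Kif4-ps, all below 2 CPM in every library. The count of higher genes was 2 without control replicate 1 or without control replicate 3, and that of lower genes was 7 without control replicate 3.

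**Figure D1:**
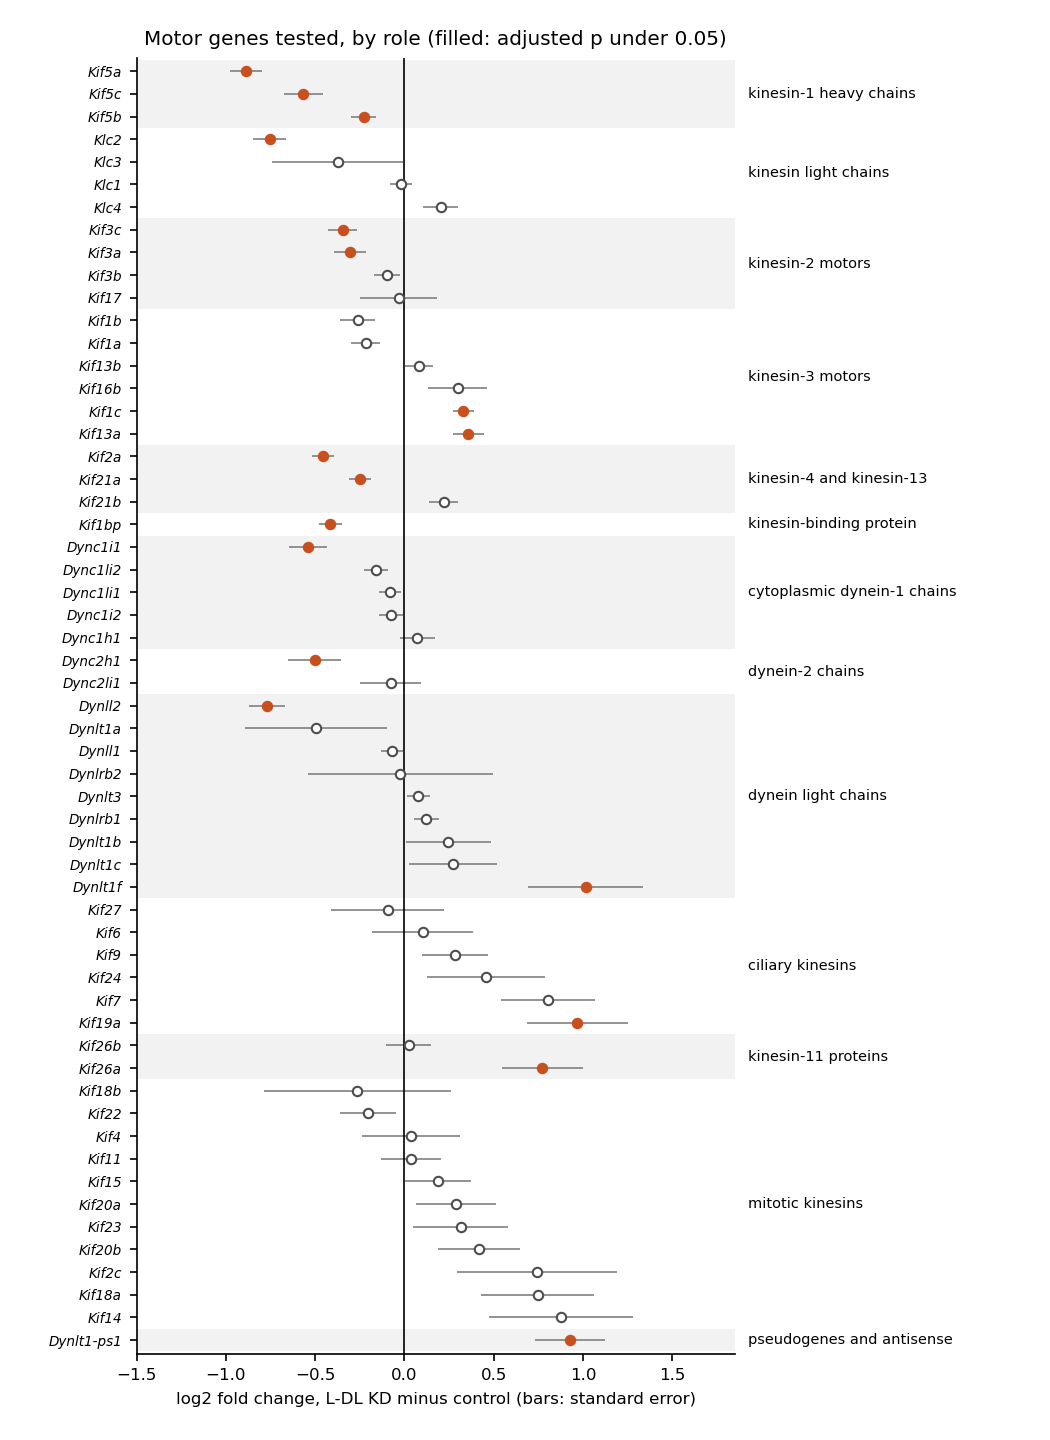
Log2 fold change (x axis, L-DL KD minus control, with standard error) of the 57 motor genes tested, grouped by role; filled points passed an adjusted p under 0.05. All 3 kinesin-1 heavy chains lie left of 0, and the mitotic kinesins, open points with wide bars, lie mostly right of it.

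All 3 kinesin-1 heavy chain genes were lower in L-DL KD. Kif5a, the neuronal heavy chain, was the most abundant motor gene per length, at 340 ± 6.72 CPM per kilobase of annotated exon in controls (SD, n = 3). Its level was 2413, 2326 and 2399 CPM in control replicates 1 to 3 and 1403, 1314 and 1141 CPM in L-DL KD replicates 1 to 3. Every L-DL KD library lay far below every control library, and Kif5a fell by 0.89 on the log2 scale (standard error 0.09, edgeR adjusted p = 0.000422). Kif5c, a second neuronal heavy chain, stood at 710, 689 and 711 CPM in controls and at 541, 488 and 396 CPM in L-DL KD, again with no overlap (log2 fold change -0.57, standard error 0.11, edgeR adjusted p = 0.00676). Kif5b, the heavy chain found in most cell types, was at 250, 261 and 265 CPM in controls and at 207, 220 and 235 CPM in L-DL KD. Its log2 fold change of -0.23 (standard error 0.07) was the smallest of the 3 and close to the threshold (edgeR adjusted p = 0.0403). The call for Kif5b was lost when control replicate 1, 2 or 3 or L-DL KD replicate 1 or 2 was left out (adjusted p between 0.0707 and 0.122), and when counts were scaled by library size alone (0.0691) or no genes were filtered (0.0682).

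The makeup of the kinesin-1 heavy chain pool differed too. Summed over the 3 genes, heavy chain levels were 3373, 3275 and 3375 CPM in controls and 2151, 2022 and 1772 CPM in L-DL KD. Kif5a gave 71.0% to 71.5% of this sum in controls and 64.4% to 65.2% in L-DL KD. The share of Kif5b was 7.41% to 7.96% in controls and 9.62% to 13.3% in L-DL KD. Per kilobase, Kif5a was 10.2 to 11.03 times the level of Kif5b in controls and 5.54 to 7.74 times in L-DL KD. None of these ranges overlapped between the groups. Such shares and ratios were compared by their ranges only, since an exact permutation test of 3 libraries against 3 cannot go below p = 0.1.

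**Figure D2:**
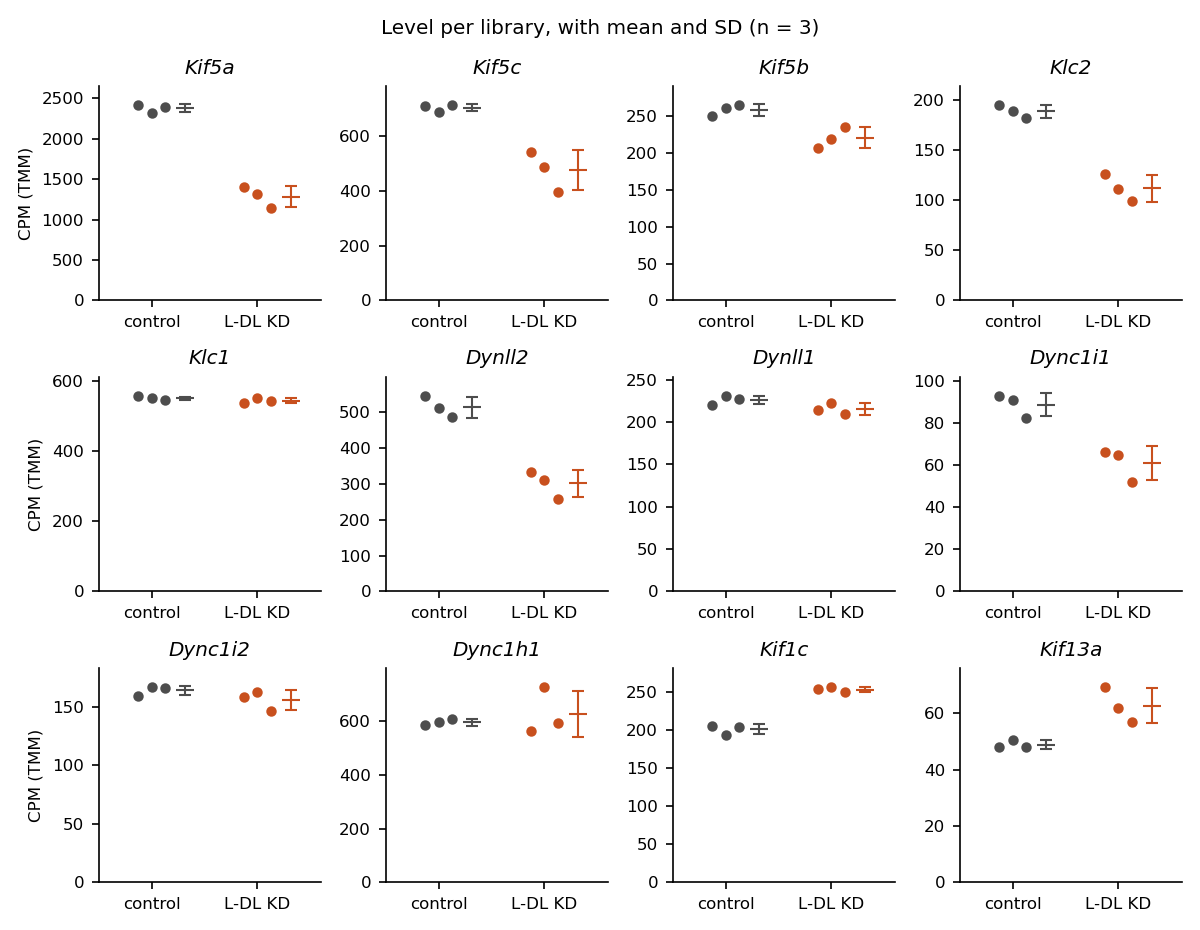
Level (y axis, TMM-scaled CPM, from 0) of 12 motor genes in each of the 6 libraries, with mean and SD beside the points (n = 3). Kif5a, Klc2 and Dynll2 show wide gaps between the groups, while the points of Klc1, Dynll1 and Dync1i2 overlap.

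The light chains of kinesin-1 parted from each other. Klc2 was at 194, 189 and 182 CPM in controls and at 125, 111 and 98.8 CPM in L-DL KD. It fell by 0.75 on the log2 scale (standard error 0.09, edgeR adjusted p = 0.000961), with a wide gap between the groups. Klc1, the most abundant light chain per length in these libraries (136 ± 1.09 CPM per kilobase in controls), was at 557, 552 and 548 CPM in controls and at 539, 551 and 545 CPM in L-DL KD. The log2 fold change of Klc1 was -0.02 (standard error 0.06, edgeR adjusted p = 0.842). The ratio of Klc2 to Klc1, per kilobase, was 0.326 to 0.343 in controls and 0.179 to 0.229 in L-DL KD. Klc4 (log2 fold change 0.20) and the scarce Klc3 (-0.37) did not pass the test.

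Among kinesin-2 genes, 2 of 4 were lower. Kif3a, which pairs with Kif3b or Kif3c to form a motor, was at 108, 106 and 122 CPM in controls and at 95.9, 94.3 and 82.0 CPM in L-DL KD (log2 fold change -0.30, edgeR adjusted p = 0.0345). Kif3c, expressed mainly in neurons, was at 147, 152 and 150 CPM in controls and at 126, 123 and 104 CPM in L-DL KD (log2 fold change -0.35, edgeR adjusted p = 0.0151). Neither gene's groups overlapped. Kif3b gave a log2 fold change of -0.10 (edgeR adjusted p = 0.333). Kif17, a motor of dendrites and cilia, was at 29.7 to 30.5 CPM in controls but at 27.01, 40.9 and 20.7 CPM in L-DL KD, a spread that lay on both sides of the controls (log2 fold change -0.03, edgeR adjusted p = 0.925). The call for Kif3a was lost without control replicate 1, 2 or 3 or L-DL KD replicate 2 or 3 (adjusted p between 0.0587 and 0.118), and that for Kif3c without control replicate 2 (0.0578) or 3 (0.0527).

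The kinesin-3 genes divided by member. Kif1c, a widely expressed vesicle motor, was at 206, 195 and 204 CPM in controls and at 254, 256 and 250 CPM in L-DL KD. It rose by 0.33 on the log2 scale (standard error 0.06, edgeR adjusted p = 0.00507), and each group was tight. Kif13a, a motor of endosomes, was at 47.9, 50.6 and 48.2 CPM in controls and at 69.1, 61.9 and 56.8 CPM in L-DL KD (log2 fold change 0.36, edgeR adjusted p = 0.0165). The groups of both genes lay apart, although the call for Kif13a was lost without control replicate 1 (0.0670) or 3 (0.0639). Most microglial and endothelial markers were higher in the same libraries, as were 1 of 8 astrocyte and 1 of 10 oligodendrocyte markers. The part of these cell types in the rises of Kif1c and Kif13a was not tested. Kif1a and Kif1b, the carriers of synaptic vesicle precursors, lay on the other side. Kif1a was at 1106, 1039 and 1127 CPM in controls and at 986, 978 and 852 CPM in L-DL KD. Kif1b was at 801, 770 and 810 CPM in controls and at 672, 740 and 573 CPM in L-DL KD. The groups of these genes did not overlap, but neither passed the test (log2 fold changes -0.22 and -0.26, edgeR adjusted p = 0.0800 and 0.0767). Both passed under DESeq2 (adjusted p = 0.0384 for Kif1a and 0.0340 for Kif1b). Kif1a also passed without L-DL KD replicate 1 (0.0300) and Kif1b without L-DL KD replicate 2 (0.0365). Kif13b and Kif16b were not called.

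Of the genes that act on microtubule growth, Kif2a and Kif21a were lower. Kif2a, a kinesin-13 that takes microtubules apart at their ends, was at 74.1, 75.5 and 74.6 CPM in controls and at 55.7, 54.3 and 53.5 CPM in L-DL KD. The libraries of each group lay close together, and it fell by 0.46 on the log2 scale (standard error 0.06, edgeR adjusted p = 0.00134). Kif21a, a kinesin-4 that slows microtubule growth, was at 208, 201 and 212 CPM in controls and at 173, 181 and 169 CPM in L-DL KD (log2 fold change -0.25, edgeR adjusted p = 0.0187). Its call was lost without control replicate 1 (0.0656) or 3 (0.0696). Its paralog Kif21b was at 91.7 to 94.7 CPM in controls and at 121, 105 and 101 CPM in L-DL KD, above the controls in all 3 libraries but short of the threshold (log2 fold change 0.22, edgeR adjusted p = 0.0749). It passed with scaling by library size (0.0474) or without L-DL KD replicate 3 (0.0497). Kif1bp, whose product binds and blocks several kinesins, was lower at 155, 148 and 146 CPM against 117, 112 and 107 CPM (log2 fold change -0.42, edgeR adjusted p = 0.00271).

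In cytoplasmic dynein-1, the complex that carries cargo toward the cell body, 1 of 5 chains was called. Dync1i1, the intermediate chain found mainly in neurons, was at 92.5, 91.1 and 82.5 CPM in controls and at 66.3, 64.8 and 51.9 CPM in L-DL KD. It fell by 0.54 on the log2 scale (standard error 0.10, edgeR adjusted p = 0.00650), with no overlap. Its paralog Dync1i2, found in most cells, was at 160, 167 and 166 CPM in controls and at 158, 162 and 146 CPM in L-DL KD (log2 fold change -0.07, edgeR adjusted p = 0.434). Per kilobase, Dync1i1 was 1.15 to 1.34 times the level of Dync1i2 in controls and 0.823 to 0.971 times in L-DL KD. The order of the paralogs by this measure, which rests on the annotated exon lengths, thus turned in all 3 L-DL KD libraries. In CPM, Dync1i1 was below Dync1i2 in every library of both groups. The heavy chain Dync1h1, which holds the motor, was at 585, 597 and 610 CPM in controls and at 564, 727 and 593 CPM in L-DL KD. Replicate 2 stood above all other libraries, and the log2 fold change was 0.07 (standard error 0.10, edgeR adjusted p = 0.622). The light intermediate chains Dync1li1 (-0.08) and Dync1li2 (-0.16) were below every control in each L-DL KD library without passing the test (edgeR adjusted p = 0.365 and 0.111).

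The small light chains of dynein showed the same division between paralogs. Dynll2 and Dynll1 encode nearly identical LC8 proteins, which also bind myosin V and scaffold proteins of synapses. Dynll2 was at 544, 512 and 486 CPM in controls and at 334, 311 and 258 CPM in L-DL KD, and fell by 0.77 on the log2 scale (standard error 0.10, edgeR adjusted p = 0.00131). Dynll1 was at 220, 230 and 227 CPM in controls and at 215, 222 and 209 CPM in L-DL KD (log2 fold change -0.07, edgeR adjusted p = 0.436). The ratio of Dynll2 to Dynll1, per kilobase, was 3.04 to 3.52 in controls and 1.76 to 2.22 in L-DL KD. Dynlt3 (log2 fold change 0.08) and Dynlrb1 (0.12) did not pass the test, although all 3 L-DL KD libraries of Dynlrb1 were at or above the highest control. The Tctex1 copies Dynlt1a, Dynlt1b, Dynlt1c, Dynlt1f and Dynlt1-ps1 are near-identical genes at low level, so reads can be split between them in any way. Of these, Dynlt1f (1.48, 1.53 and 0.761 CPM against 2.64, 2.74 and 2.26 CPM) and Dynlt1-ps1 (2.83, 2.94 and 2.66 CPM against 5.17, 4.76 and 6.13 CPM) were called higher, with log2 fold changes of 1.01 and 0.93. Dynlt1f lost its call when any single library was left out (adjusted p between 0.0639 and 0.116), under DESeq2 (0.0556) and without the filter on low counts (0.0637).

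Several motor genes of cilia were highest in 1 library of the L-DL KD group. Dync2h1, the heavy chain of the dynein that returns intraflagellar trains, was lower, at 33.7, 40.4 and 45.3 CPM in controls and at 28.0, 32.7 and 23.5 CPM in L-DL KD (log2 fold change -0.50, edgeR adjusted p = 0.0360). This call was lost without control replicate 2 (0.102) or 3 (0.125) or L-DL KD replicate 3 (0.0905). Kif19a, which trims microtubules at the tips of motile cilia, was at 6.52, 7.40 and 5.83 CPM in controls and at 17.8, 12.99 and 7.79 CPM in L-DL KD (log2 fold change 0.97, edgeR adjusted p = 0.0338). Without L-DL KD replicate 1 its log2 fold change was 0.66 (adjusted p = 0.0571), and the call was also lost without any control library or L-DL KD replicate 2 (between 0.0708 and 0.114). Ependymal markers, genes of motile cilia, summed to 98.3 to 112 CPM in controls and to 196, 114 and 78.2 CPM in L-DL KD replicates 1 to 3. Kif9, Kif27, Kif6 and Dynlrb2 were also highest in L-DL KD replicate 1 and, apart from Kif9, lowest in L-DL KD replicate 3. None of these 4 genes was called, and the part of ependymal cells in the value of Kif19a was not tested. Markers of the choroid plexus had their highest sum in L-DL KD replicate 1 (5179 CPM). The next highest was in control replicate 3 (4625 CPM), where Kif19a was at 5.83 CPM. A link between Kif19a and the choroid plexus was not tested. Kif7, a regulator of Hedgehog signalling in cilia, was at 3.999, 3.23 and 2.92 CPM in controls and at 7.15, 6.55 and 3.99 CPM in L-DL KD, just short of the threshold (log2 fold change 0.80, edgeR adjusted p = 0.0518). It passed under 6 of 12 alternatives, DESeq2 (0.0361) and leaving out L-DL KD replicate 3 (0.0150) among them. Of 10 ependymal markers tested, 0 passed edgeR's test, 1 passed DESeq2 and 1 had an unadjusted p under 0.05.

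**Figure D3:**
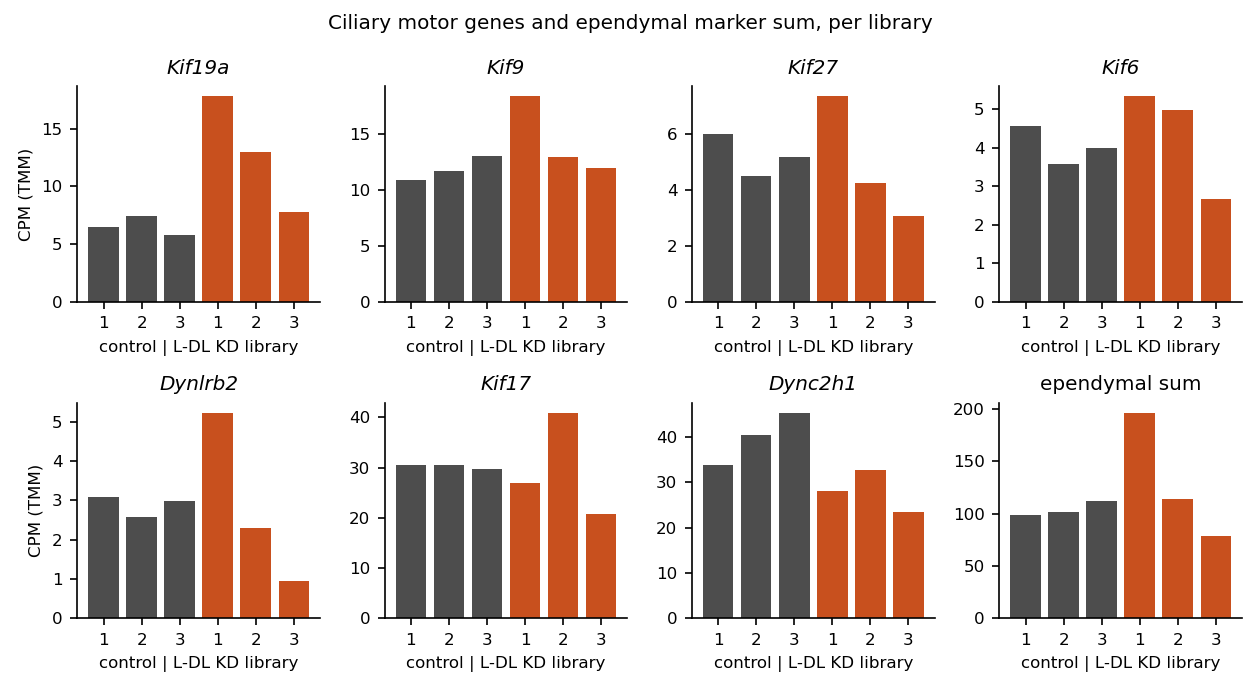
Level (y axis, TMM-scaled CPM, from 0) of 7 motor genes with roles in cilia, and the summed level of the 10 ependymal markers, in each library (bars; grey, control; orange, L-DL KD). L-DL KD replicate 1 has the highest bar for Kif19a, Kif9, Kif27, Kif6, Dynlrb2 and the marker sum.

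The kinesins of the mitotic spindle were scarce, at no more than 9.70 CPM in any library. Of 12 listed here, 11 were tested and 0 passed edgeR's test or DESeq2, with 1 at an unadjusted p under 0.05. Of the 11 tested, 9 had a positive log2 fold change, with a median of 0.29 and the highest for Kif14 (0.88, edgeR adjusted p = 0.138) and Kif18a (0.75, adjusted p = 0.112). Kif18a passed without control replicate 2 (0.0353). Markers of dividing cells summed to 47.9 to 71.8 CPM in controls and 60.5 to 77.8 CPM in L-DL KD, and 0 of 13 were called by edgeR or DESeq2 (3 at an unadjusted p under 0.05). Kif26a, which has no motor activity and takes part in enteric neuron development, was called higher, at 9.29, 8.58 and 8.18 CPM in controls and at 20.5, 11.6 and 12.3 CPM in L-DL KD (log2 fold change 0.77, edgeR adjusted p = 0.0339). That call was lost without control replicate 1 (0.0805), 2 (0.0988) or 3 (0.109). Kif26b was not called (log2 fold change 0.02).

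Genes that attach motors to cargo or switch them on were also tested. Of 27 kinesin adaptors and activators, 17 were lower and 4 higher, with a median log2 fold change of -0.29, against 15.0% lower and 15.6% higher over all genes tested. The neuronal markers were lower in the same libraries (9 of 12, with a median of -0.35), and their part in this count was not tested. Kifap3, the subunit that joins the Kif3 motors to cargo, was at 213, 201 and 210 CPM in controls and at 94.2, 69.9 and 62.2 CPM in L-DL KD. It fell by 1.46 on the log2 scale (standard error 0.14, edgeR adjusted p = 0.000351), beside log2 fold changes of -0.30, -0.10 and -0.35 for Kif3a, Kif3b and Kif3c. The mitochondrial adaptors Trak1 and Trak2 went opposite ways. Trak1 was at 241, 229 and 226 CPM in controls and at 134, 122 and 130 CPM in L-DL KD (log2 fold change -0.85, edgeR adjusted p = 0.000186). Trak2 was at 272, 278 and 292 CPM in controls and at 696, 612 and 523 CPM in L-DL KD (log2 fold change 1.12, edgeR adjusted p = 0.000325). Apba1, which links Kif17 to vesicles of glutamate receptors, was lower (log2 fold change -1.08, edgeR adjusted p = 0.000683). Ppfia4, Map7d1 and Fez2 were the other 3 higher genes.

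Dynactin is the cofactor that most dynein cargoes need. Of its 12 genes 2 were lower, Dctn1 (log2 fold change -0.39) and Dctn3 (-0.59), and 2 were higher, Actr1b (0.23) and Capza1 (0.31), with a median of -0.04, which is near the shares of 15.0% and 15.6% over all genes tested. Of 16 dynein adaptors and regulators tested, 4 were lower (Bicd2, Bicdl1, Ndel1 and Rab11fip3) and 0 were higher, with a median of -0.11. The log2 fold changes of the 4 were -0.71 to -0.50. Among the 3 C-terminal kinesins, which walk to the minus end, Kifc2 of neurons was at 345, 309 and 315 CPM in controls and at 154, 138 and 120 CPM in L-DL KD (log2 fold change -1.24, edgeR adjusted p = 0.000205). Of 17 genes of intraflagellar transport, 2 were higher (Ift57 and Ift81) and 2 lower (Ift80 and Ift172). Of 15 axonemal dynein genes 1 was lower (Dnal1) and 0 were higher.

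Splicing was read from junction counts, the reads that join exons with (inclusion) or without (skipping) a segment. The inclusion level (PSI, percent spliced in, here from 0 to 1) is the share of transcripts that hold the segment. The splicing table does not number its replicates, so its libraries are called a, b and c in the order listed, and these letters need not match the replicate numbers above. Which group is listed first was taken from the sign of the PSI difference as the study defines it. Of the 183 events in motor genes, 101 in 24 genes had enough counts to be tested (on average 20 or more per library, and 1 or more of each form). Kif21a alone gave 20 of them, Kif3a and Klc1 10 each and Kif1a 8. At an unadjusted p under 0.05 from edgeR, 17 events differed (16.8%), 6 toward inclusion and 11 toward skipping, against 13.3% of all 18829 events tested. After adjustment over all events 1 of the 101 passed, against 0.255% of all events. The limma test on the log2 ratio of the forms gave 18 events at an unadjusted p under 0.05 and 0 after adjustment.

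The event that passed was in the dynein heavy chain. It is exon 73 of 77 of transcript Dync1h1-201, a coding exon of 154 nt at chr12:110665083-110665236 on the plus strand (GRCm38). Its length is not a multiple of 3, so a transcript without it changes its reading frame. The exon is printed in capitals between the last 12 bases of the exon before it and the first 12 bases of the exon after it, as read from the GENCODE M21 transcript.
Dync1h1 exon 73: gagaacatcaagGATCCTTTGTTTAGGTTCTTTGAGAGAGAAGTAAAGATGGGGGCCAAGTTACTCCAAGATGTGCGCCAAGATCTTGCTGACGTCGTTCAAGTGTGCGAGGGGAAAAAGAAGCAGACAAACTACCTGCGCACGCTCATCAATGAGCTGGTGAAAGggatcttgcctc

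Reads that skip this exon numbered 0, 0 and 0 in control libraries a, b and c and 8, 18 and 30 in L-DL KD libraries a, b and c. The inclusion reads were 906, 965 and 842 in controls and 799, 793 and 730 in L-DL KD. A count of 0 allows, by 3 counts and for counting error only, a skipping share of up to 0.331%, 0.311% and 0.356% of the junction reads in the controls. PSI was 1 in every control and 0.980, 0.957 and 0.924 in L-DL KD, a fall to 0.954 ± 0.0283 (SD, n = 3; edgeR adjusted p = 0.0497). Skipping therefore remained a small share of Dync1h1 transcripts in each library, in a gene whose total level was not called. The adjusted p was 0.0216 without L-DL KD a. It passed the threshold no longer without L-DL KD b (0.137) or c (0.128) or control a (0.195), b (0.191) or c (0.208), with a minimum mean of 50 counts (0.0559) or with limma (0.0901).

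Very short exons mostly had a lower PSI in L-DL KD. Of the skipped exons tested, 11 events in 10 exons of 6 genes were of 27 nt or less. All 11 have lengths that are multiples of 3, so that inclusion adds whole codons. PSI was lower in L-DL KD in 10 of the 11, with a median difference of -0.11, and 4 had an unadjusted p under 0.05, all toward skipping. Over all 452 events of such short exons in the series, 83.6% had a lower mean PSI in L-DL KD, the median difference was -0.08, and 38.9% had an unadjusted p under 0.05. The groups did not overlap in 7 of the 11 motor gene events (63.6%), against 45.4% of all short exons tested. At 27 nt or less the motor genes thus followed the pattern of such exons in the whole table. With the limit raised to 51 nt, 12 of 20 motor gene events (60%) had a lower PSI, against 68.3% of 1405 events in the series. The motor gene events added by the wider limit mostly had a higher PSI in L-DL KD. The events at an unadjusted p under 0.05 remained the same 4 (20%, against 26.2% in the series). Of the 48 events of longer skipped exons (over 51 nt) in motor genes, 11 had an unadjusted p under 0.05, 4 toward inclusion and 7 toward skipping (22.9%, against 16.6% of the 9185 such events in the series, 563 toward inclusion and 964 toward skipping).

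The exons whose groups did not overlap are printed with the exon in capitals and 12 bases of each neighbouring exon in lower case, 5′ to 3′ on the transcript (GENCODE M21, GRCm38), to show which codons enter the messenger RNA.
Kif1a exon 13: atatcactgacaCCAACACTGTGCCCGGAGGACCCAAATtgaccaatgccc
Kif1a exon 37 of Kif1a-204: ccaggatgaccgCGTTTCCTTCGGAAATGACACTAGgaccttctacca
Kif1a exon 37 of Kif1a-202: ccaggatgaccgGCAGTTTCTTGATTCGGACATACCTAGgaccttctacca
Dync1i2 exon 4: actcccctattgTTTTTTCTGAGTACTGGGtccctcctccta
Kif21a exon 23: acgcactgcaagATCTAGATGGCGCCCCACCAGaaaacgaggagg
Kif21a exon 29: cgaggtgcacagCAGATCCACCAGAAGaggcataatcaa
Kif3a exon 11: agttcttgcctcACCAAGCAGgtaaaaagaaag

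Kif1a, the synaptic vesicle motor, has 3 of these exons. Exon 13 of Kif1a-201 (27 nt, chr1:93065552-93065578, minus strand) adds 9 codons. Its PSI was 0.587, 0.486 and 0.456 in controls and 0.394, 0.263 and 0.245 in L-DL KD, from 409 to 560 junction reads per library. The means were 0.510 ± 0.0684 and 0.301 ± 0.0813 (SD, n = 3; edgeR adjusted p = 0.137). The 24-nt exon 37 of Kif1a-204 (chr1:93026832-93026855) had a PSI of 0.270, 0.299 and 0.262 in controls and of 0.235, 0.142 and 0.138 in L-DL KD (edgeR adjusted p = 0.255). The 27-nt exon 37 of Kif1a-202 (chr1:93034546-93034572) lies between the same neighbours, and the reads that skip it are the same reads that skip the 24-nt exon. Its PSI was 0.212 to 0.222 in controls and 0.199 to 0.201 in L-DL KD, a difference of -0.02 (edgeR adjusted p = 0.877). Of these alternatives between the same neighbours, the exon further along the transcript thus had the wider PSI difference.

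Dync1i2, the dynein intermediate chain whose total level was not called, carries an 18-nt exon (exon 4 of Dync1i2-203, chr2:71227827-71227844, plus strand) that adds 6 codons. Its PSI was 0.401, 0.429 and 0.311 in controls and 0.184, 0.215 and 0.0740 in L-DL KD, with 159 to 244 junction reads per library (edgeR adjusted p = 0.142). The skipping reads were 118, 105 and 121 in controls and 171, 187 and 146 in L-DL KD. A separate event, of an alternative 3′ splice site, sets this exon against a form that begins 76 nt further upstream. In that event the longer form had a PSI of 0.244 ± 0.0554 in controls and 0.476 ± 0.136 in L-DL KD (SD, n = 3, edgeR adjusted p = 0.288). Its reads numbered 42, 29 and 42 in controls and 55, 43 and 33 in L-DL KD. Set against skipping, that 94-nt form was rare and had a PSI of 0.0285 ± 0.0189 in controls and 0.00714 ± 0.00329 in L-DL KD, from 4, 9 and 3 inclusion reads against 3, 2 and 1 (edgeR adjusted p = 0.321). The read counts of the longer form differ widely between these events, so how often the upstream site is used cannot be told. These events share reads and are not independent. The paralog Dync1i1 has a 60-nt exon (exon 5 of Dync1i1-202, chr6:5784439-5784498) with a PSI of 0.956, 0.890 and 0.843 in controls and of 0.818, 0.801 and 0.700 in L-DL KD (edgeR adjusted p = 0.322).

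In Kif21a the 21-nt exon 23 of Kif21a-201 (chr15:90964975-90964995, minus strand) had a PSI of 0.867, 0.896 and 0.789 in controls and of 0.758, 0.694 and 0.708 in L-DL KD (edgeR adjusted p = 0.279). The 15-nt exon 29 (chr15:90948324-90948338) had a PSI of 0.575, 0.628 and 0.545 in controls and of 0.436, 0.314 and 0.441 in L-DL KD (edgeR adjusted p = 0.3999). The 9-nt exon 11 of Kif3a-202 (chr11:53590717-53590725) rested on 15 to 37 reads per library, with mean PSI of 0.753 ± 0.0211 in controls and 0.543 ± 0.151 in L-DL KD (SD, n = 3; edgeR adjusted p = 0.537). Counted with another upstream neighbour, the same exon gave overlapping groups. These exons of Kif21a and Kif3a were chosen after their values were seen. Short exons with little difference were the 18-nt exon 10 of Kif1b-203 (PSI 0.692 ± 0.0558 and 0.678 ± 0.0957) and the 27-nt exons of Kif5c and Kif1b, whose PSI was at most 0.0214 in any library.

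**Figure D4:**
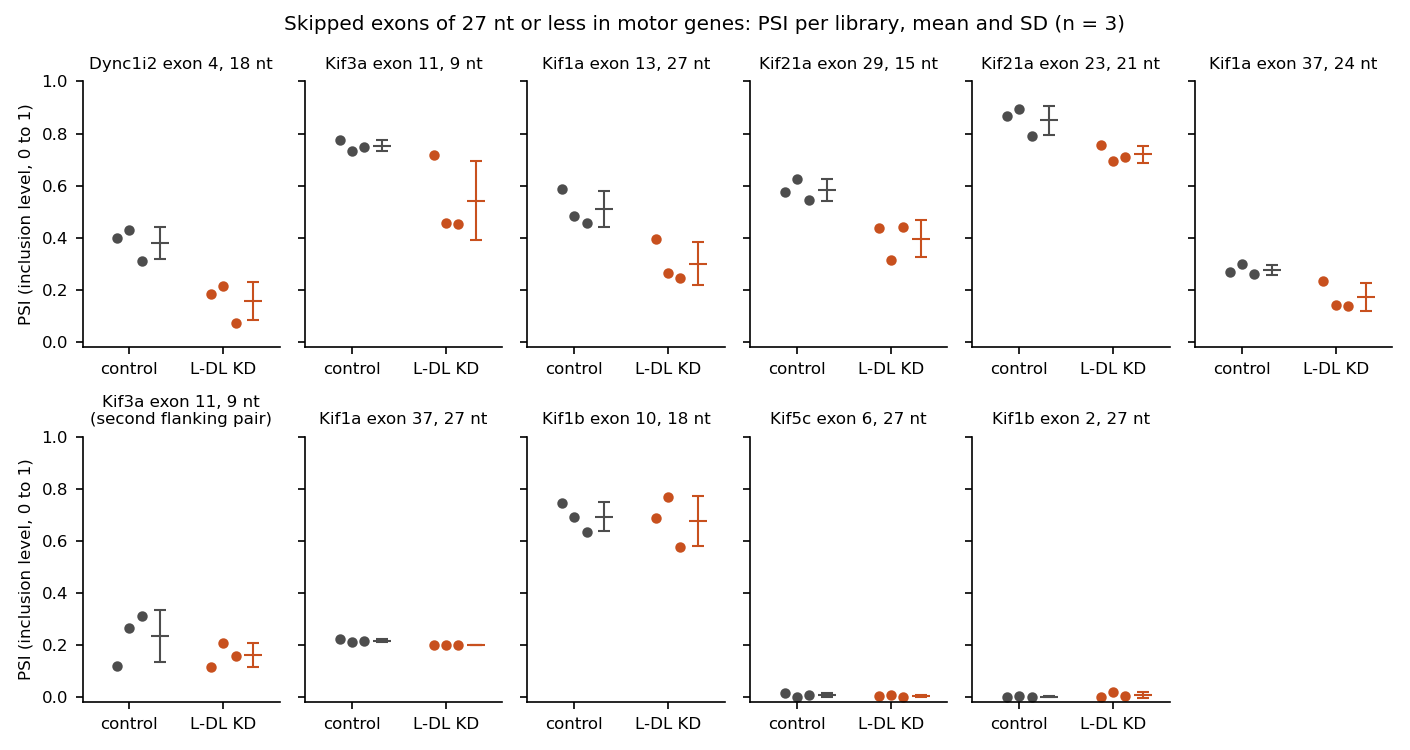
PSI (y axis, 0 to 1) in each library for the 11 tested events of exons of 27 nt or less in motor genes, ordered by the difference between group means, with mean and SD beside the points (n = 3). Dync1i2 exon 4 has the widest gap between means, and Kif5c exon 6 and the Kif1b 27-nt exon lie near 0 in both groups.

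**Figure D5:**
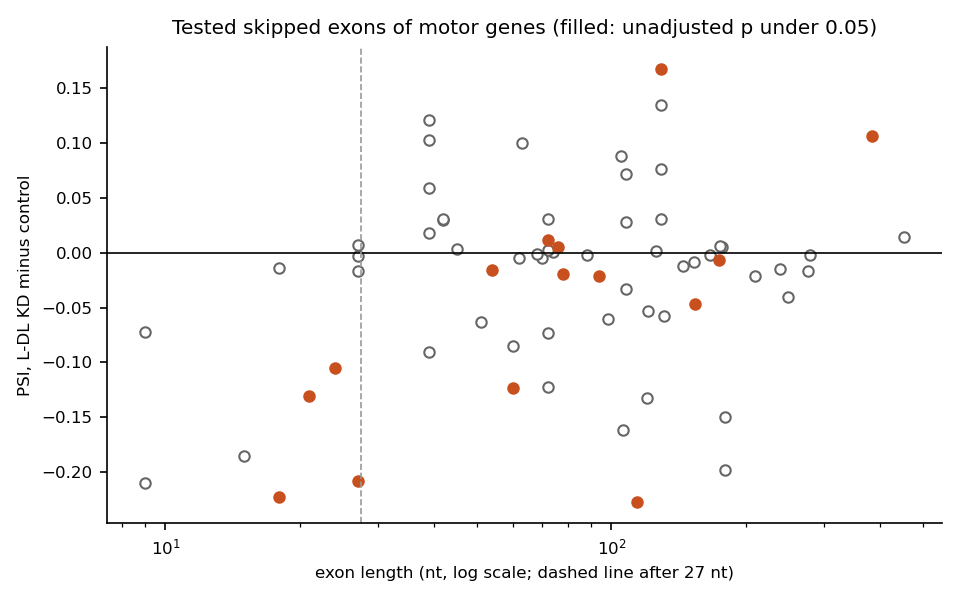
Difference in mean PSI (y axis, L-DL KD minus control) of the 68 tested skipped exon events in motor genes against exon length (x axis, nt, log scale). Of the events left of the dashed line at 27 nt, 10 of 11 lie below 0; longer exons lie on both sides.

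Several longer exons of motor genes were skipped by at most 22 reads in any library. In Klc1, whose level was not called, exon 8 of Klc1-201 (174 nt, chr12:111781652-111781825) was skipped by 0, 0 and 0 reads in controls and by 10, 4 and 6 reads in L-DL KD, beside 1900 to 2185 inclusion reads per library (edgeR adjusted p = 0.102). Exon 14 of Kif3a-201 (54 nt) was skipped by 0 reads in each control and by 4, 2 and 1 reads in L-DL KD. Exon 42 of Kif1a-201 (78 nt) was skipped by 0, 0 and 3 reads in controls and by 3, 11 and 22 in L-DL KD. In Dynlrb1, exon 2 was skipped by 0, 5 and 8 reads in controls and by 0 in each L-DL KD library, which is the opposite direction. In the controls a count of 0 allows a skipping share of up to 0.147% to 0.158% of the junction reads for the Klc1 exon and of up to 1.20% to 1.33% for the Kif3a exon.

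Exon 18 of Kif2a-204 (114 nt, chr13:106969704-106969817) had a PSI of 0.826, 0.849 and 0.869 in controls and of 0.817, 0.602 and 0.446 in L-DL KD, where library a lay next to the controls (edgeR adjusted p = 0.269). Kif2a thus was lower in level and had a lower mean PSI at this exon. An alternative 3′ splice site of Kif17 (276 nt, chr4:138277796-138278071) had the smallest p of the differences toward inclusion, with a PSI of 0.880, 0.878 and 0.811 in controls and of 0.972, 1 and 1 in L-DL KD, from 5, 3, 7, 1, 0 and 0 reads of the short form (edgeR adjusted p = 0.148). Exon 35 of Kif21b-204 (180 nt, of which 97 are coding) lies in a transcript annotated under nonsense-mediated decay and not as protein coding. Its PSI was 0.614 ± 0.0438 in controls and 0.417 ± 0.131 in L-DL KD (SD, n = 3, edgeR adjusted p = 0.429). The most covered tested events of Kif1b, Kif21a, Dync1i2 and Kif5c differed in mean PSI by -0.0117 to 0.00265 and had edgeR adjusted p of 0.718 or more. With 3 libraries against 3, an exact permutation test of PSI cannot go below p = 0.1, and it gave this value for each event above whose groups did not overlap.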

How the data were processed

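Total RNA of 3 control and 3 L-DL KD hippocampus samples was sequenced by the authors from oligo(dT)-enriched libraries. The authors deposited raw counts of reads per Ensembl gene and the rMATS junction counts of inclusion and skipping forms, with form lengths, aligned to GRCm38. The submitters' processing notes name HISAT2 (version 2.1.0), HTSeq (version 0.6.1) and Bowtie (version 1.1.2) without roles, and whether counting used strand is not given in the sources used here. The deposited PSI, p-value, FDR and difference columns were not used as results. In the splicing table the group listed first was read as L-DL KD.

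Motor genes and gene lists were chosen with earlier results of these data known. Gene counts were tested with edgeR (version 4.0.16), TMM scaling and quasi-likelihood, for genes that reached 10 counts in 3 or more libraries. Junction counts were tested with edgeR on 12 columns (both forms in each library), with effects for library, inclusion and inclusion by group. Adjusted p-values are Benjamini-Hochberg values over all genes or events, and CPM are TMM-scaled. PSI was recomputed from counts and form lengths. CPM per kilobase used the union of GENCODE M21 exons, of genes matched for 52403 of 52550 identifiers, and exon numbers and sequences came from its transcripts (GRCm38). Depth was 16052529 to 17913064 gene counts and 6760349 to 7939931 junction counts per library. Alternatives used DESeq2 (version 1.42.0), limma (version 3.58.1, pseudocount 0.5), other scalings and filters, a replicate block and each library left out. Scripts ran in R 4.3.3 and Python 3.11.15.

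The genes given in full were the 23 transport motor genes of a set list, the 6 largest changes in each direction among called genes, the events past the adjusted threshold, the 10 segments of smallest p, and the most covered event of 8 genes. Other motor genes, adaptors and short exons were named after their values were seen. Reads were not analysed here.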

Additional observations from a re-analysis of the deposited data

How the results depend on the processing

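Of the 18 motor genes called, 9 passed in every alternative that gave a value: Kif5a, Kif5c, Klc2, Kif2a, Dync1i1, Dynll2, Kif1bp, Kif1c and Dynlt1-ps1. The other 9 lost the threshold in some, and 5 genes not called passed in some (Kif1a, Kif1b, Kif21b, Kif7 and Kif18a). No log2 fold change of a called gene turned its direction. With a library left out, the count of higher genes was 2 to 7 (6 with all libraries) and that of lower genes 7 to 12 (12 with all). For splicing events at an unadjusted p under 0.05 this range was 13 to 19 (17 with all), and at an adjusted p under 0.05 it was 0 to 1 (1 with all). That last count was 0 with a minimum mean of 50 counts and 0 with limma. Deviations of same-numbered libraries correlated at 0.07, 0.18 and -0.16. With 3 libraries in each group, these values cannot show whether the replicate numbers pair the samples. With the replicate block 6 genes were higher and 9 lower. It ended the calls of Kif5b (adjusted p = 0.0515), Kif3a (0.0770), Dync2h1 (0.0568) and Dynlt1f (0.0558), and Kif7 passed (0.0457). The splicing libraries carry no numbers, so no block was fitted to events. Without form lengths the PSI difference of the Klc1 exon was -0.00323 and that of the Kif17 site 0.0732. The other 117 of 119 recomputed PSI differences moved by no more than the spread between libraries. Scaling by library size alone shifted the median log2 fold change of all genes to 0.04, and gave 8 higher and 11 lower motor genes. The cause of these shifts was not tested. Few reads of the rarer form (0 to 30 for the Dync1h1 exon) limit the precision of PSI.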
